A study of Mus musculus with 11 samples.

Results

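The G1 cyclins and their kinases are the 8 genes Ccnd1, Ccnd2, Ccnd3, Ccne1, Ccne2, Cdk2, Cdk4 and Cdk6, and they were followed here over 3 postnatal ages of mouse muscle stem cells. Every probe set that carried exactly 1 of these symbols was taken, which gave 24 of the 45037 probe sets tested and 8 of 18193 genes. All mice were Pax3GFP/+ on a C57BL/6J background, a line in which green fluorescent protein (GFP) is made from the Pax3 locus, and living GFP-positive cells were collected by flow cytometry. Cells came from postnatal day 1 (P1, 4 arrays), day 12 (P12, 4 arrays) and day 28 (P28, 3 arrays). The labels describe the P1 and P12 samples as proliferating satellite cells of trunk muscle, and the series text states that its ages span proliferating and quiescent satellite cells. The P28 cells are listed from abdominal, pectoral and intercostal muscle, and their internal sample names differ in form from those of the other ages, so that age, muscle and any batch cannot be told apart for P28. Arrays of an age are called biological replicates without the number of animals behind each, and p-values measure the spread between these arrays only. Values are log2 RMA values of 1 probe set, which can be set against the same probe set on other arrays and not against another probe set.

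A cell leaves G1, the gap before DNA replication, when cyclin-dependent kinases (CDKs) bound to cyclins phosphorylate the retinoblastoma protein and free E2F transcription factors. D-type cyclins pair with Cdk4 and Cdk6 and are made in answer to growth factors. E-type cyclins pair with Cdk2 at the entry into S phase and are themselves E2F targets. Proteins of the INK4 and Cip/Kip families inhibit these kinases, and satellite cells, the stem cells of skeletal muscle, stop dividing and become quiescent as the muscle matures.

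The arrays were alike in their medians (5.50 to 5.58), and the Trp controls, bacterial sequences absent from mouse RNA, reached 3.96 at most and mark the background. The log2 difference between the 3′ and 5′ Gapdh controls, which grows as RNA is read less fully from its 3′ end, was 2.59, 2.79, 1.69 and 1.62 on the P1 arrays, 2.64, 3.05, 1.32 and 1.38 on the P12 arrays and 0.99, 0.92 and 0.79 on the P28 arrays. It was therefore higher in replicates 1 and 2 than in replicates 3 and 4 at both P1 and P12, and lowest at P28. Xist, made from the inactive X chromosome, was at 5.82 to 5.96 on P1 replicates 2 to 4, at 11.29 on P1 replicate 1 and at 10.59 to 11.81 on all P12 and P28 arrays. P28 against P12 therefore compares arrays that are alike in Xist, and P1 holds both levels. Of the 8 satellite cell markers, Pax7 averaged 10.75, 10.78 and 10.72 and Pax3 8.29, 8.60 and 8.48 at P1, P12 and P28. Satellite cell markers also moved in P12 against P1, where Calcr rose by 0.76, Cd34 fell by 0.60 and 6 did not pass. Calcr, Cd34 and Cdh15 were higher at P28 than at P1, by 1.35, 0.61 and 0.38, and 5 markers did not pass there. Of these 8 markers 2 rose (Calcr and Cd34) and 0 fell in P28 against P12. Markers of other cells rose in the same comparison, where 15.5% of all genes rose, namely 5 of 5 endothelial, 4 of 4 neutrophil, 3 of 6 macrophage, 3 of 5 fibroblast, 2 of 4 pericyte, 2 of 3 mast cell, 1 of 2 erythroid and 0 of 4 Schwann cell and melanocyte genes. The mean log2 value of the endothelial list was 5.69 to 6.40 on P1, 5.93 to 6.73 on P12 and 8.05 to 8.80 on P28 arrays. For the neutrophil list it was 5.79 to 7.36 on P1, 5.43 to 6.24 on P12 and 9.40 to 10.54 on P28 arrays. For both lists every P28 array stood above every other array. Macrophage genes averaged 7.67 to 8.55 on P28 arrays, against 6.19 to 6.70 on P12 arrays. Fibroblast genes averaged 10.66 to 11.41 on P28 arrays, against 9.50 to 9.96 on P12 arrays, and pericyte genes averaged 9.58 to 9.76 on P28 arrays, against 8.56 to 9.06 on P12 arrays. No gene of these lists stayed at or below the highest Trp value on all arrays (0 genes). Of 7 genes of differentiating muscle 4 rose and 1 fell in P28 against P12, and 2 rose (Myog and Mymk) and 1 fell (Myh3, by 0.76) in P12 against P1. Other marker genes moved in P12 against P1 too, as Rgs5 and Acta2 of pericytes and smooth muscle rose by 1.07 and 0.69, while Cspg4 of pericytes fell by 0.74, Cpa3 of mast cells by 2.03, Cd68 of macrophages by 1.38 and Pdgfra of fibroblasts by 1.45. The part of these cells in the results below was not tested. In such bulk samples fewer cells of a type and less RNA per cell cannot be told apart.

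Promoter sequences were found for 5 of the 8 genes in RefSeq (GRCm38.p6), namely Ccnd3, Ccne1, Cdk2, Cdk4 and Cdk6. The 250 bases before the annotated start are printed for 4 of them, 5′ to 3′ on the gene's own strand. Capitals mark GCGGGA on either strand (also read as TCCCGC), a core of E2F-type sites, and CACGTG, the E-box bound by Myc and related factors. The Ccne1 window is chr7:38107491-38107740 (minus strand), that of Cdk2 chr10:128705052-128705301 (minus strand), that of Cdk4 chr10:127063285-127063534 (plus strand) and that of Cdk6 chr5:3343643-3343892 (plus strand).
Ccne1: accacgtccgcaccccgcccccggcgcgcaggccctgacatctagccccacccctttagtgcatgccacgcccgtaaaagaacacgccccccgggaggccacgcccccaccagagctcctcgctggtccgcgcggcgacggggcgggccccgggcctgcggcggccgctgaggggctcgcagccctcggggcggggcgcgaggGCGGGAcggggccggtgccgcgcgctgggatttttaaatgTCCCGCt
Cdk2: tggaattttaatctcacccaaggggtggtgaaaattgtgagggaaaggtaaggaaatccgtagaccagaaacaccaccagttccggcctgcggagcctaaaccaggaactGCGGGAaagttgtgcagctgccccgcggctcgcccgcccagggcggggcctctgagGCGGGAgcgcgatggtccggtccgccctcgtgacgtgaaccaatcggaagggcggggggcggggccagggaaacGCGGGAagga
Cdk4: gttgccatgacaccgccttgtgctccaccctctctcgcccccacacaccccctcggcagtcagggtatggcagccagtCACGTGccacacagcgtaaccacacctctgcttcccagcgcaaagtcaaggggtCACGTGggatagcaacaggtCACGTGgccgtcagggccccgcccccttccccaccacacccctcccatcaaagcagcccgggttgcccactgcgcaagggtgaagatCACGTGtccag
Cdk6: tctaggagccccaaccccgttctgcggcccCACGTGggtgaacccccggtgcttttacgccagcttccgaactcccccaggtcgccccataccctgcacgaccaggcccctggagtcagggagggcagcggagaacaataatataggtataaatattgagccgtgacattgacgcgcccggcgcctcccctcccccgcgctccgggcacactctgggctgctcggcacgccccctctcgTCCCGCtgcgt
GCGGGA stood 2 times in the Ccne1 window, 3 times in that of Cdk2, 1 time in that of Cdk6 and 0 times in that of Cdk4. CACGTG stood 4 times in the Cdk4 window and 1 time in that of Cdk6, and 0 times in those of Ccne1 and Cdk2. Among 32851 such windows of 27025 genes, 16.9% held GCGGGA and 6.02% held CACGTG, while the GC box GGGCGG was in 32.7%. GGGCGG stood 4 times in the Ccne1 window, 5 times in that of Cdk2, 1 time in that of Cdk4 and 0 times in that of Cdk6, and it shares the letters GCGG with GCGGGA, which it can overlap. Both windows of Ccnd3, which has annotated starts in separate places on chromosome 17, held neither GCGGGA nor CACGTG (0 each). The motifs were chosen after these sequences had been read, and a match is a description of letters, not of a bound site. Any link between these motifs and the changes with age was not tested.

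Ccnd1 was the one gene of the 8 whose probe sets rose in P12 against P1, while both probe sets of Ccne1 and 4 of the 7 of Ccnd2 fell there. Ccne1, Ccne2, Cdk6 and Cdk2 fell in P28 against P12. By limma at a Benjamini-Hochberg adjusted p under 0.05, 3 of the 24 probe sets rose and 6 fell in P12 against P1, where 3.25% of all probe sets rose and 1.59% fell, and the 3 that rose were all of Ccnd1. With each array centred on its median the split was 5 that rose and 6 that fell. In P28 against P12, 5 rose and 9 fell, against 13.5% and 15.9% of all probe sets, and in P28 against P1, 3 rose and 10 fell, against 17.6% and 17.4%. Arrays of the ages did not overlap for 9 of the 24 probe sets in P12 against P1, 16 in P28 against P12 and 14 in P28 against P1, where 10.3%, 35.3% and 40.7% of all probe sets were without overlap. The median change of the 24 was -0.16, -0.20 and -0.21 in the same order, beside 0.01, -0.05 and -0.05 over all probe sets. Probe sets of 1 gene share their transcripts, so the 24 are not independent. The 3 comparisons share arrays, so their counts are not independent either.

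**Figure D1:**
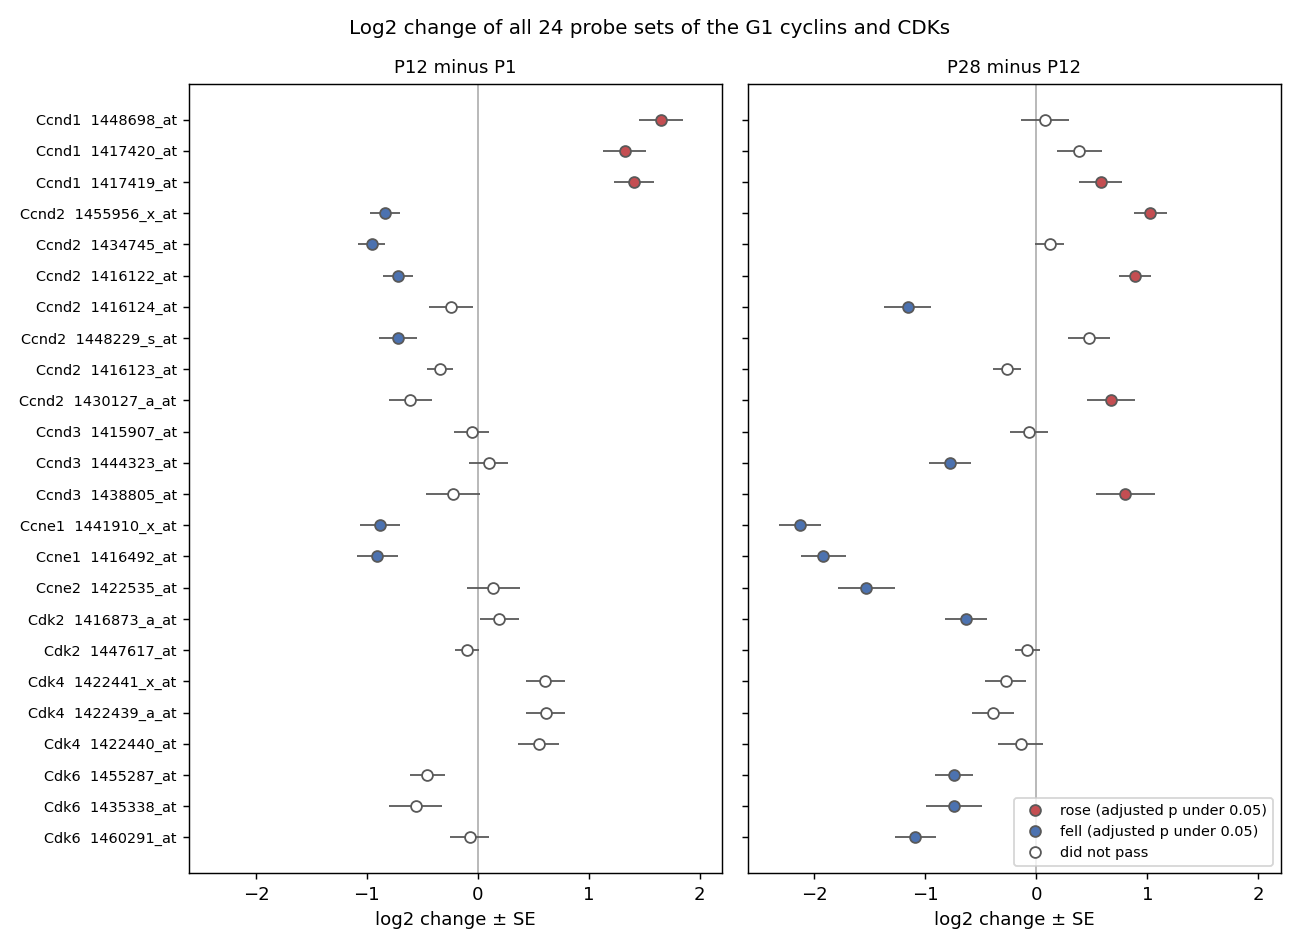
Log2 change ± SE of all 24 probe sets (rows) in P12 minus P1 and in P28 minus P12; red points rose and blue points fell at an adjusted p under 0.05, white points did not pass. The 3 Ccnd1 rows stand between 1.32 and 1.65 on the left, and the Ccne1 rows reach -2.13 on the right.

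Ccnd1, the D-type cyclin best known as a sensor of growth factor signals, was higher at P12 and at P28 than at P1 with all 3 of its probe sets. Its brightest probe set, 1448698_at, was at 9.22, 9.92, 9.49 and 9.57 at P1, at 11.72, 11.33, 10.67 and 11.06 at P12, and at 11.34, 11.11 and 11.39 at P28. All P12 and P28 arrays lay above all P1 arrays, and the P12 and P28 arrays overlapped. The rise in P12 against P1 was 1.65 ± 0.20 (log2 change ± SE, 3.14-fold; limma, Benjamini-Hochberg adjusted p = 0.000544). In P28 against P1 it was 1.73 ± 0.22 (3.31-fold, adjusted p = 3.88e-05), while P28 differed from P12 by 0.08 ± 0.22 (adjusted p = 0.821). The other 2 probe sets moved alike in P12 against P1, 1417419_at by 1.41 ± 0.18 (adjusted p = 0.000787) and 1417420_at by 1.32 ± 0.19 (adjusted p = 0.00163). Within replicates 1 and 2 alone 1448698_at changed by 1.96 (adjusted p = 0.0322) and within replicates 3 and 4 alone by 1.34 (adjusted p = 0.00642), so the rise of this probe set stood in both pairs of arrays. Within replicates 1 and 2 alone 1417419_at changed by 1.58 and 1417420_at by 1.43, and neither passed (adjusted p = 0.0648 and 0.103). The P1 array with high Xist, replicate 1, had the lowest value of 1448698_at. It was also the lowest P1 array for both Ccne1 probe sets (11.27 and 9.76), which fell in P12 against P1. The same held for the Cdk6 probe set 1455287_at (8.32). The part of the Xist level in P12 against P1 was not tested. For 1417419_at the further change in P28 against P12 was 0.58 (adjusted p = 0.0393), a call that ended in 6 of 7 fits without 1 array (adjusted p up to 0.113) and with the 3′ to 5′ Gapdh difference as a covariate (0.16), called the Gapdh covariate below. That difference was lower on all P28 arrays (0.99 at most) than on any other array (1.32 at least). The covariate is therefore partly tied to age in comparisons with P28, where a call can end through a wider error as well as a smaller change. Of the differentiating-muscle genes, Myog and Mymk rose in P12 against P1, by 0.90 and 1.33, and Myh3 fell by 0.76.

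**Figure D2:**
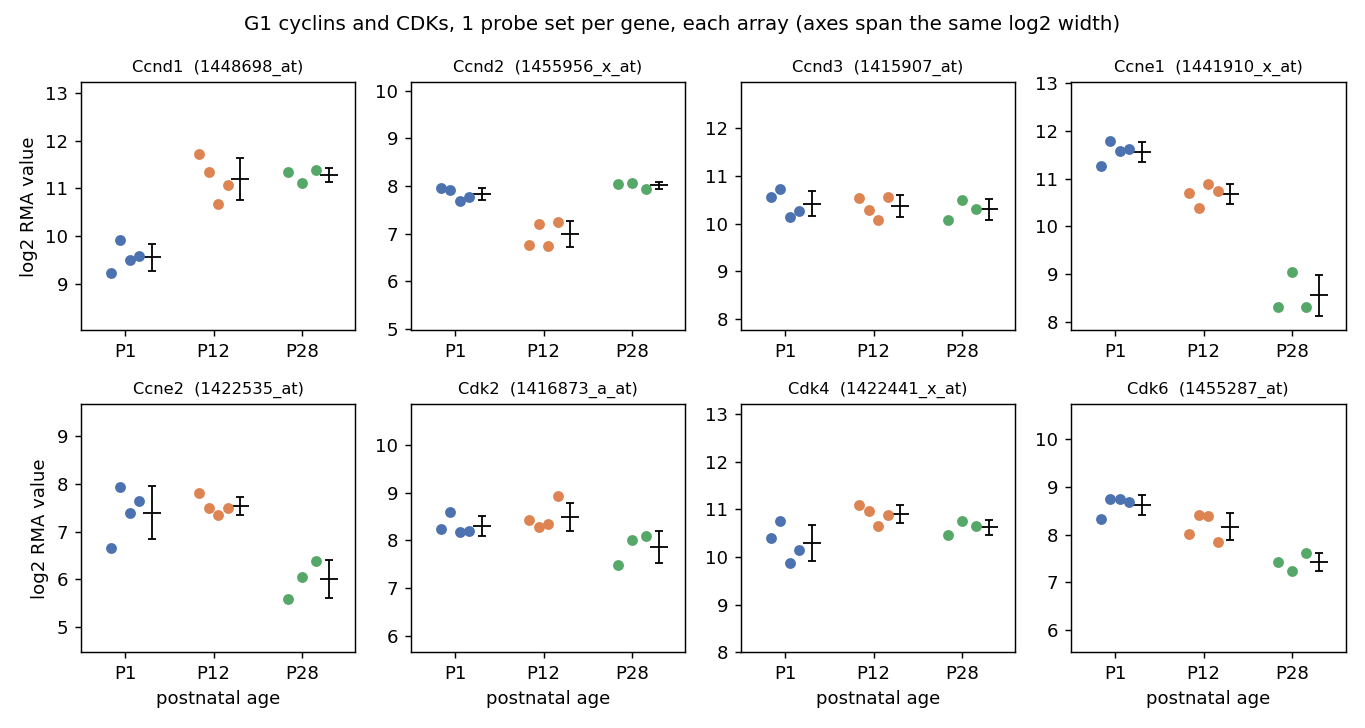
Log2 RMA value (vertical axes, all of the same width in log2 units) against postnatal age for the brightest probe set of each of the 8 genes; points are arrays, and the bars beside them are mean ± SD (n = 4, 4 and 3). Ccnd1 arrays lie between 9.22 and 9.92 at P1 and at 10.67 or above later, Ccne1 arrays step down at each age to 8.30 to 9.05 at P28, and Ccnd3 arrays overlap at all ages.

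Ccnd2, the second D-type cyclin, took a course that depended on the probe set. Its brightest probe set, 1455956_x_at, was at 7.96, 7.91, 7.68 and 7.76 at P1, at 6.77, 7.20, 6.74 and 7.24 at P12, and at 8.04, 8.07 and 7.93 at P28. The P12 arrays thus lay below both other ages without overlap. It fell by 0.84 on the log2 scale in P12 against P1 (SE 0.14, limma adjusted p = 0.00377) and rose by 1.03 ± 0.15 in P28 against P12 (adjusted p = 0.000171). The change in P28 against P1 was 0.19 ± 0.15 (adjusted p = 0.353). Probe set 1416122_at had the same dip, with 7.04, 6.91, 7.0 and 7.0 at P1, 6.04, 6.09, 6.25 and 6.68 at P12, and 7.21, 7.10 and 7.16 at P28. Its changes were -0.72 ± 0.13 in P12 against P1 (adjusted p = 0.00877) and 0.89 ± 0.15 in P28 against P12 (adjusted p = 0.000459).

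Other Ccnd2 probe sets did not return at P28. Probe set 1434745_at was at 7.56 to 7.87 at P1, 6.62 to 6.92 at P12 and 6.70 to 7.07 at P28. It fell by 0.96 in P12 against P1 (SE 0.12, adjusted p = 0.000749) and by 0.83 in P28 against P1 (SE 0.13, adjusted p = 0.000256), with 0.12 ± 0.13 between P28 and P12 (adjusted p = 0.536). Probe set 1416124_at was at 6.77, 6.73, 7.34 and 7.04 at P1, at 6.62, 6.85, 6.70 and 6.75 at P12, and at 6.16, 5.44 and 5.11 at P28. It fell in the later step, where the dip probe sets rose, by 1.16 in P28 against P12 (SE 0.21, adjusted p = 0.00111). The remaining 3 probe sets were dimmer. Of these, 1448229_s_at fell by 0.72 in P12 against P1 (adjusted p = 0.0297, but up to 0.0731 without 1 array), 1416123_at fell by 0.61 in P28 against P1 (adjusted p = 0.00232), and 1430127_a_at rose by 0.67 in P28 against P12 (adjusted p = 0.029, but 0.08 to 0.117 without P12 replicate 1, P12 replicate 2 or P28 replicate 2, and a change of 0.19 with adjusted p = 0.559 under the Gapdh covariate). With the replicate number as a block, 1430127_a_at also passed in P12 against P1 (-0.61, adjusted p = 0.0441, against 0.102 without the block). In all, 4 of 7 Ccnd2 probe sets fell and 0 rose in P12 against P1, 3 rose and 1 fell in P28 against P12, and 3 fell and 0 rose in P28 against P1. Within replicates 1 and 2 alone 1455956_x_at changed by -0.95 (adjusted p = 0.0905) and within replicates 3 and 4 alone by -0.73 (adjusted p = 0.0632). Where each probe set lies on the Ccnd2 transcripts was not analysed here, and the suffixes _x_at and _s_at mark probe sets whose probes can match other transcripts.

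**Figure D3:**
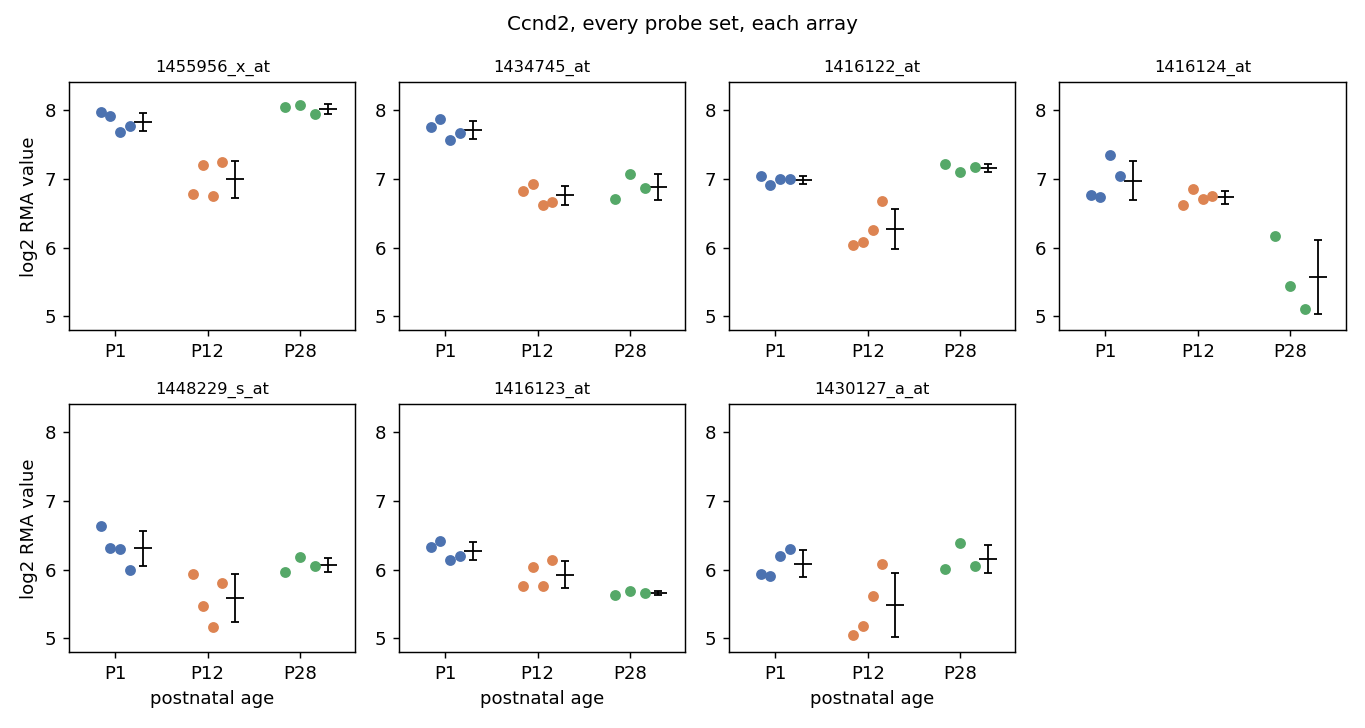
Log2 RMA value of each of the 7 Ccnd2 probe sets (panels, shared vertical range) against postnatal age, with arrays as points and mean ± SD (n = 4, 4 and 3) beside them. The P28 arrays stand above the P12 arrays in 1455956_x_at and 1416122_at and below them in 1416124_at, where they lie between 5.11 and 6.16.

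Ccnd3, the D-type cyclin that is linked to muscle differentiation, did not pass in any comparison with its brightest probe set. Probe set 1415907_at was at 10.55, 10.72, 10.14 and 10.27 at P1, at 10.53, 10.28, 10.07 and 10.57 at P12, and at 10.09, 10.51 and 10.30 at P28. The arrays of the 3 ages overlapped, and the differences were -0.05 ± 0.16 in P12 against P1, -0.07 ± 0.17 in P28 against P12 and -0.12 ± 0.17 in P28 against P1 (limma adjusted p = 0.911, 0.816 and 0.628). The signs of these small differences turned under several settings, and with quantile normalization P28 against P1 passed (-0.39, adjusted p = 0.0336). The 2 dim probe sets moved in opposite directions in P28 against P12. Probe set 1444323_at fell by 0.78 (SE 0.19, adjusted p = 0.00636), with 5.0, 5.92 and 5.12 at P28 against 6.0 to 6.20 at P12. It also fell by 0.68 in P28 against P1 (adjusted p = 0.0114, but 0.0651 without P28 replicate 1, 0.0566 without P28 replicate 3 and 0.073 with the Gapdh covariate). Probe set 1438805_at rose by 0.80 ± 0.26 (adjusted p = 0.0339), with 5.71, 4.66 and 4.52 at P28 against 3.93 to 4.25 at P12, but the call ended without P28 replicate 1 (0.43, adjusted p = 0.178), without any 1 of the 4 P12 arrays (adjusted p = 0.0503 to 0.0862) and with the Gapdh covariate (0.0931).

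Cdk4, the kinase that all D-type cyclins bind, was higher at P12 than at P1 by 0.61 ± 0.17 in 1422441_x_at, which just missed the threshold (limma adjusted p = 0.0608). Its arrays were at 10.40, 10.75, 9.86 and 10.13 at P1, at 11.10, 10.96, 10.65 and 10.88 at P12, and at 10.45, 10.76 and 10.65 at P28. Only P1 replicate 2 reached into the P12 range. Without it the change was 0.76 (adjusted p = 0.0209), and with the replicate number as a block it was 0.61 (adjusted p = 0.0426). Within replicates 1 and 2 alone the change was 0.45 (adjusted p = 0.347), and within replicates 3 and 4 alone it was 0.77 (adjusted p = 0.0385). The other 2 probe sets changed by 0.61 (1422439_a_at, adjusted p = 0.0696) and 0.55 (1422440_at, adjusted p = 0.119). No Cdk4 probe set passed in P28 against P12 (0 of 3, -0.39 to -0.14) or in P28 against P1 (0 of 3, 0.22 to 0.41). With the Gapdh covariate, however, P28 against P1 passed in 1422441_x_at (0.70, adjusted p = 0.0243) and 1422439_a_at (0.62, adjusted p = 0.0416). Without P1 replicate 2 it passed in 1422441_x_at (0.49, adjusted p = 0.0411) and 1422440_at (0.58, adjusted p = 0.024). With quantile normalization 1422439_a_at passed in P28 against P12 (-0.42, adjusted p = 0.0451).

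Cdk6, the second D-cyclin kinase, fell at P28 with all 3 of its probe sets. In 1455287_at the values were 8.32, 8.75, 8.75 and 8.69 at P1, 8.02, 8.42, 8.39 and 7.85 at P12, and 7.44, 7.24 and 7.61 at P28. Every P28 array lay below every array of the other ages, while P12 and P1 overlapped. The changes were -0.74 in P28 against P12 (SE 0.17, 1.67-fold, limma adjusted p = 0.00442) and -1.20 in P28 against P1 (SE 0.17, 2.29-fold, adjusted p = 9.93e-05). In P12 against P1 the change was -0.45 ± 0.16 (adjusted p = 0.12). Probe set 1460291_at fell by 1.09 in P28 against P12 (SE 0.19, adjusted p = 0.000696), and 1435338_at fell by 0.74 (SE 0.25, adjusted p = 0.0411). The call of 1435338_at ended without any of 4 single arrays (adjusted p up to 0.202 without P28 replicate 2) and with the Gapdh covariate (0.216).

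Ccne1, an E-type cyclin that activates Cdk2 at the start of S phase, had the widest span of age means of the 8 genes, 3.01 log2 units. Its probe set 1441910_x_at was at 11.27, 11.79, 11.59 and 11.62 at P1, at 10.70, 10.39, 10.89 and 10.75 at P12, and at 8.30, 9.05 and 8.31 at P28. The 3 ages formed 3 separate bands in descending order. The changes were -0.88 in P12 against P1 (SE 0.18, 1.84-fold, limma adjusted p = 0.0133), -2.13 in P28 against P12 (SE 0.19, 4.38-fold, adjusted p = 3.86e-06) and -3.01 in P28 against P1 (SE 0.19, 8.06-fold, adjusted p = 1.09e-07). The second probe set, 1416492_at, gave 9.76, 10.53, 10.08 and 10.17 at P1, 9.51, 9.14, 9.02 and 9.26 at P12, and 6.91, 7.65 and 7.38 at P28. Its changes were of like size, -0.91 (adjusted p = 0.014), -1.92 (1.26e-05) and -2.82 (2.57e-07) in the same order. Within replicates 1 and 2 alone 1441910_x_at changed by -0.98 in P12 against P1 (adjusted p = 0.115), and within replicates 3 and 4 alone by -0.78 (adjusted p = 0.0258).

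Ccne2, the second E-type cyclin, did not pass in P12 against P1 and fell in both comparisons with P28. Its only probe set, 1422535_at, was at 6.65, 7.93, 7.38 and 7.65 at P1, at 7.81, 7.49, 7.36 and 7.49 at P12, and at 5.58, 6.06 and 6.38 at P28. Every P28 array lay below every earlier array, although P1 replicate 1 was close to the highest of them. The change was -1.53 in P28 against P12 (SE 0.26, 2.89-fold, limma adjusted p = 0.000574) and -1.40 in P28 against P1 (SE 0.26, adjusted p = 0.000853). P12 differed from P1 by 0.14 ± 0.24 (adjusted p = 0.836).

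Cdk2, the kinase partner of the E-type cyclins, was lower at P28 by a smaller amount. Probe set 1416873_a_at was at 8.23, 8.60, 8.17 and 8.20 at P1, at 8.43, 8.29, 8.34 and 8.93 at P12, and at 7.48, 8.02 and 8.09 at P28. It fell by 0.63 in P28 against P12 (SE 0.19, 1.55-fold, limma adjusted p = 0.0206), a call that ended without P28 replicate 1 (-0.44, adjusted p = 0.112) and with the Gapdh covariate (-0.71, adjusted p = 0.0635). The change was -0.44 ± 0.19 in P28 against P1 (adjusted p = 0.0852, but -0.63 and 0.0119 with quantile normalization) and 0.19 ± 0.17 in P12 against P1 (adjusted p = 0.627). The second Cdk2 probe set, 1447617_at, stayed between 2.84 and 3.27 on all arrays, below the highest Trp control value, so it gives no change.

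Whether family members changed by unequal amounts was asked of their differences within each array. Each difference was compared by an exact two-sided permutation test over arrays, and 15 tests were adjusted together by the Benjamini-Hochberg method. The smallest p these arrays allow is 0.0286, which became 0.0429 after adjustment. When P1 and P12 arrays of the same number were kept as pairs, all 5 differences had the same sign in 4 of 4 pairs, but the exact paired test cannot go below 0.125 with 4 pairs, so none of the calls in P12 against P1 passes that test (adjusted p = 0.125 each). Ccnd1 minus Ccnd2 was 4.21 ± 0.51 at P12, against 1.72 ± 0.32 at P1 (SD, n = 4 each), a difference of 2.49 (adjusted exact p = 0.0429). It was 3.26 ± 0.21 at P28 (SD, n = 3), which is 0.95 less than at P12 and 1.54 more than at P1 (adjusted exact p = 0.0429 each). The smaller difference at P28 than at P12 belongs to the dipping Ccnd2 probe set 1455956_x_at used here, as 1434745_at changed by 0.12 and 1416124_at by -1.16 in that step and Ccnd1 by 0.08. Ccnd1 minus Ccnd3 changed by 1.70 in P12 against P1 and by 1.85 in P28 against P1 (adjusted exact p = 0.0429 each), and by 0.15 in P28 against P12 (0.571).

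For the E-type pair, Ccne1 minus Ccne2 changed by -1.02 in P12 against P1 and by -1.61 in P28 against P1 (adjusted exact p = 0.0429 each). In P12 against P1 Ccne1 fell while Ccne2 did not pass, and in P28 against P1 Ccne1 lost more than Ccne2. The difference changed by -0.60 in P28 against P12 (adjusted exact p = 0.179). Cdk4 minus Cdk6 changed by 1.06 in P12 against P1 and by 1.53 in P28 against P1 (adjusted exact p = 0.0429 each), and by 0.47 in P28 against P12 (0.275). Cdk4 minus Cdk2 changed by 0.77 in P28 against P1 (adjusted exact p = 0.0429), by 0.41 in P12 against P1 (0.155) and by 0.36 in P28 against P12 (0.264). Cdk4 thus gained on Cdk6 by P12, and the difference from Cdk2 passed in P28 against P1 and in neither single step. Ccnd1 minus Ccne1, a pair chosen after its values had been seen and therefore not tested, was -2.01 ± 0.10 at P1, 0.51 ± 0.58 at P12 and 2.73 ± 0.57 at P28 (SD, n = 4, 4 and 3).

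The genes whose courses over the 11 arrays came closest to each of the 8 were found among 6734 genes whose age means spanned at least 0.5. Likeness was the root mean square difference of log2 values after each probe set had been centred on its mean. Nearest to Ccnd1 were Adcy7 (0.18), Slc43a2 (0.24) and Chrna1 (0.27), where the median candidate stood at 0.89. For the dipping Ccnd2 probe set they were Moxd1 (0.17), Hfe (0.19) and Frrs1l (0.20), of a median of 0.66. Ccne1, with the widest span (3.01), had Rtl3 (0.38), Parm1 (0.39) and Epha3 (0.40) of a median of 1.44. These differences are larger, but the measure is not scaled to the span of a gene. Ccne2 had Wdr76 (0.20), Exosc9 (0.23) and Nsd2 (0.23) of a median of 0.93. Cdk2 and Cdk4 had the narrowest spans of age means among the genes given neighbours (0.63 and 0.61). Cdk2 was nearest to Snapc2, Tmem129 and Cdc23 (0.11 to 0.12, median 0.54), Cdk4 to Fh1, Rnf7 and Plxna1 (0.11 each, median 0.51) and Cdk6 to Tcf7l1, Zc2hc1a and Mfap3l (0.14 to 0.15, median 0.75). Ccnd3 spanned 0.12 and was given no neighbours.

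The rest of the G1 pathway was followed in 7 lists with 100 measured genes, each by its brightest probe set. In P12 against P1, 14 of the 100 rose and 0 fell by limma (at an unadjusted p under 0.05, 41 and 4), where 3.94% of all genes rose and 1.85% fell. Without P1 replicate 3, P1 replicate 4, P12 replicate 1 or P12 replicate 4, between 3 and 6 rose, and within replicates 1 and 2 alone 0 rose (19 within replicates 3 and 4). In P28 against P12, 12 rose and 52 fell, against 15.5% and 15.4% of all genes, and in P28 against P1, 18 rose and 35 fell, against 19.9% and 16.3%. Those that fell in P28 against P1 numbered 22 without P1 replicate 2, 23 without P28 replicate 1 and 11 with the Gapdh covariate. With quantile normalization they numbered 48.

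CDK inhibitors, the direct brakes on the kinases, mostly did not pass. In P12 against P1 14.3% rose and 0% fell, beside 3.94% and 1.85% of all genes. In P28 against P12 0% rose and 14.3% fell, beside 15.5% and 15.4%. In P28 against P1 28.6% rose and 14.3% fell, beside 19.9% and 16.3%. With 7 genes 1 call makes 14.3%, so these shares are coarse and do not set the inhibitors apart. Cdkn1a averaged 10.96 ± 0.50 at P1, 10.97 ± 0.43 at P12 and 10.72 ± 0.42 at P28, and Cdkn1b, which holds Cdk2 inactive, averaged 9.49 ± 0.38, 9.94 ± 0.21 and 9.66 ± 0.26 at the same ages. Cdkn1c averaged 12.83 ± 0.44, 12.97 ± 0.36 and 12.43 ± 0.40, and Cdkn2a averaged 4.54 ± 0.25, 4.57 ± 0.12 and 4.42 ± 0.12 (SD, n = 4, 4 and 3). None of these 4 passed in a comparison (0 calls), although with quantile normalization Cdkn1c passed in P28 against P12 (-0.54, adjusted p = 0.0285) and in P28 against P1 (-0.63, adjusted p = 0.011), and leaving out P12 replicate 3 also gave a call in P28 against P12 (0.0484). Without P1 replicate 1 Cdkn1b passed in P12 against P1 (0.63, adjusted p = 0.0472). Among the INK4 proteins, which bind Cdk4 and Cdk6, Cdkn2c rose by 1.05 ± 0.18 in P12 against P1 (limma adjusted p = 0.00601), the one inhibitor of 7 that was called there, where 4 had an unadjusted p under 0.05. Cdkn2c was also higher in P28 against P1, by 0.65 (adjusted p = 0.0207, but 0.0997 without P28 replicate 3, 0.0543 without P1 replicate 4, 0.0819 with quantile normalization and 0.184 with the Gapdh covariate). Cdkn2d rose by 1.26 ± 0.26 in P28 against P1 (adjusted p = 0.00203, but 0.0845 with the Gapdh covariate). With the replicate number as a block it also passed in P12 against P1 (0.83, adjusted p = 0.0281, against 0.0699 without the block). Cdkn2b fell by 1.08 in P28 against P12 (SE 0.20, adjusted p = 0.00112), the one call of 7 there, and 0 rose (0 also at an unadjusted p under 0.05). Its fall of 0.57 in P28 against P1 (adjusted p = 0.0386) was not called in 5 of 7 fits without 1 array (up to 0.164) or with the Gapdh covariate (0.4).

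Of 13 pocket proteins, the family of the retinoblastoma protein, and E2F factors, 8 fell, 1 rose and 4 did not pass in P28 against P12 (median -0.66, beside -0.03 over all genes), among them E2f7 by 2.11, E2f8 by 1.23 and the pocket protein Rbl1 by 1.72 (limma adjusted p = 9.86e-06, 0.00047 and 0.000218). Rbl2, the pocket protein of resting cells, was the one that rose (0.68, adjusted p = 0.0479), a call that ended without any 1 of the 7 arrays (adjusted p up to 0.174). In P12 against P1, 1 of the 13 rose, E2f8 (0.83, adjusted p = 0.0229, up to 0.0715 without 1 array), and 0 fell (3 at an unadjusted p under 0.05). In P28 against P1, 6 fell and 1 rose, with Tfdp2, a partner of E2F factors, down by 1.16 (adjusted p = 0.001). The shares that fell were 61.5% in P28 against P12 and 46.2% in P28 against P1, beside 15.4% and 16.3% of all genes. In each comparison 7.69% rose, beside 3.94% of all genes in P12 against P1, 15.5% in P28 against P12 and 19.9% in P28 against P1.

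Regulators of the kinases and of cyclin turnover were split. Of 14 genes, 0 were called in P12 against P1 (1 rose at an unadjusted p under 0.05). In P28 against P12, 6 fell (42.9%) and 3 rose (21.4%), beside 15.4% and 15.5% of all genes. Skp2, the F-box protein that marks Cdkn1b for destruction, fell by 1.89 (SE 0.22, limma adjusted p = 3.61e-05), the phosphatase Cdc25a fell by 1.14 (adjusted p = 3.35e-05) and the Skp2 partner Cks1b fell by 0.91 (adjusted p = 0.00133, with a change of -0.57 under the Gapdh covariate). The F-box genes Fbxo4 and Fbxo31, both described as acting on cyclin D1, rose by 0.75 and 0.74 (adjusted p = 0.0103 and 0.00823), and the chaperone Cdc37 rose by 0.42 (adjusted p = 0.0351, up to 0.1 without 1 array). With the Gapdh covariate 0 rose and 3 fell.

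S phase and mitosis genes, which act after the G1 kinases, rose or did not pass in P12 against P1 and mostly fell in P28 against P12. Of all genes, 3.94% rose in P12 against P1, beside 9.52% of the S phase genes and 50% of the S to M genes. In P28 against P12 15.4% of all genes fell, beside 76.2% and 81.2%, and 15.5% rose, beside 0% and 0%. In P28 against P1 16.3% fell, beside 47.6% and 25%, and 19.9% rose, beside 4.76% and 0%. Of 21 S phase genes, 16 fell and 0 rose in P28 against P12 (unadjusted, 19 and 0), including Rrm2 by 1.42, Cdc7 by 1.17 and Tk1 by 1.15 (limma adjusted p = 0.000206, 0.000998 and 0.0105). Of 16 genes of S to M cyclins, kinases and mitosis, 13 fell and 0 rose (unadjusted, 14 and 0), including Cdc20 by 1.77, Top2a by 1.76 and Ccnf by 1.71 (adjusted p = 0.000421, 0.000619 and 0.000559). In P12 against P1, 8 of these 16 rose (median 0.93, beside 0.02 over all genes), with Birc5 up by 1.49, Plk1 by 1.34 and Cdc25c by 1.05 (adjusted p = 0.0133, 0.00628 and 0.0225). That count was 2 or 3 without P1 replicate 3, P1 replicate 4, P12 replicate 1 or P12 replicate 4, and 0 within replicates 1 and 2 alone. It was 9 within replicates 3 and 4 alone and 12 with array weights. Of the S phase genes 2 rose in P12 against P1, and Rrm1 was one (0.65, adjusted p = 0.0221, up to 0.0693 without 1 array and 0.141 with quantile normalization). Their count of 2 became 0 with quantile normalization, without P1 replicate 3, P1 replicate 4 or P12 replicate 1, and within replicates 1 and 2 alone. It became 4 with median centring or array weights and 5 with array pairs as a block. Ccne1 fell in this same comparison, and Ccnd1 rose. In P28 against P1, 10 of the 21 S phase genes fell and 1 rose, Pcna (0.57, adjusted p = 0.00872, but 0.164 with quantile normalization and 0.0726 with the Gapdh covariate), and 4 of the 16 later genes fell and 0 rose (unadjusted, 5 and 0). The 10 became 3 without P28 replicate 2, 4 without P1 replicate 2, 5 without P28 replicate 3 and 1 with the Gapdh covariate. They became 13 with quantile normalization and 12 with array weights or without P1 replicate 1. The 4 became 1 without P28 replicate 1 or with the covariate, and 2 without P1 replicate 2, 3 or 4. They became 7 with quantile normalization and 6 without P1 replicate 1 or P28 replicate 3.

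Of 12 growth-factor-induced transcription factors, 8 rose, 1 fell and 3 did not pass in P28 against P1 (median 0.98, beside -0.02 over all genes), with Fosl1 up by 5.28, Myc by 2.03 and Junb by 1.85 (limma adjusted p = 1.36e-07, 7.01e-06 and 1.54e-05). The shares that rose and fell were 66.7% and 8.33%, beside 19.9% and 16.3% of all genes. In P28 against P12 they were 50% and 8.33%, beside 15.5% and 15.4%. From these 12, 6 rose and 1 fell in P28 against P12, with Fosl1 up by 3.93 and Mycn down by 0.74 (adjusted p = 3.16e-06 and 0.00581; for Mycn 0.138 with the Gapdh covariate). In this step the brightest Ccnd1 probe set did not pass. All marker lists but that of Schwann cells and melanocytes held genes that rose there. The part of other cells in this was not tested. Of 17 other cyclins and CDKs, 2 rose and 7 fell in P28 against P12, that is 11.8% and 41.2%, beside 15.5% and 15.4% of all genes. Their list was named as without a G1 role, which was not tested for its genes. Ccng1, a p53 target, rose by 1.61 and Cdk5 by 0.97 (adjusted p = 0.00011 and 0.00286; for Cdk5 0.0782 with the Gapdh covariate), while Ccng2 fell by 1.42 and Ccnt2 by 1.34 (adjusted p = 0.000148 and 3.15e-05). Of these 17 genes 4 rose and 7 fell in P28 against P1 (23.5% and 41.2%, beside 19.9% and 16.3% of all genes). Only 2 rose there without P1 replicate 3, P1 replicate 4, P28 replicate 1 or P28 replicate 3. Only 1 gene of each of these last 2 lists rose in P12 against P1 and 0 fell (at an unadjusted p under 0.05, 4 and 0 of the growth-factor-induced genes and 3 and 1 of the others). The shares that rose were 8.33% and 5.88%, beside 3.94% of all genes.

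**Figure D4:**
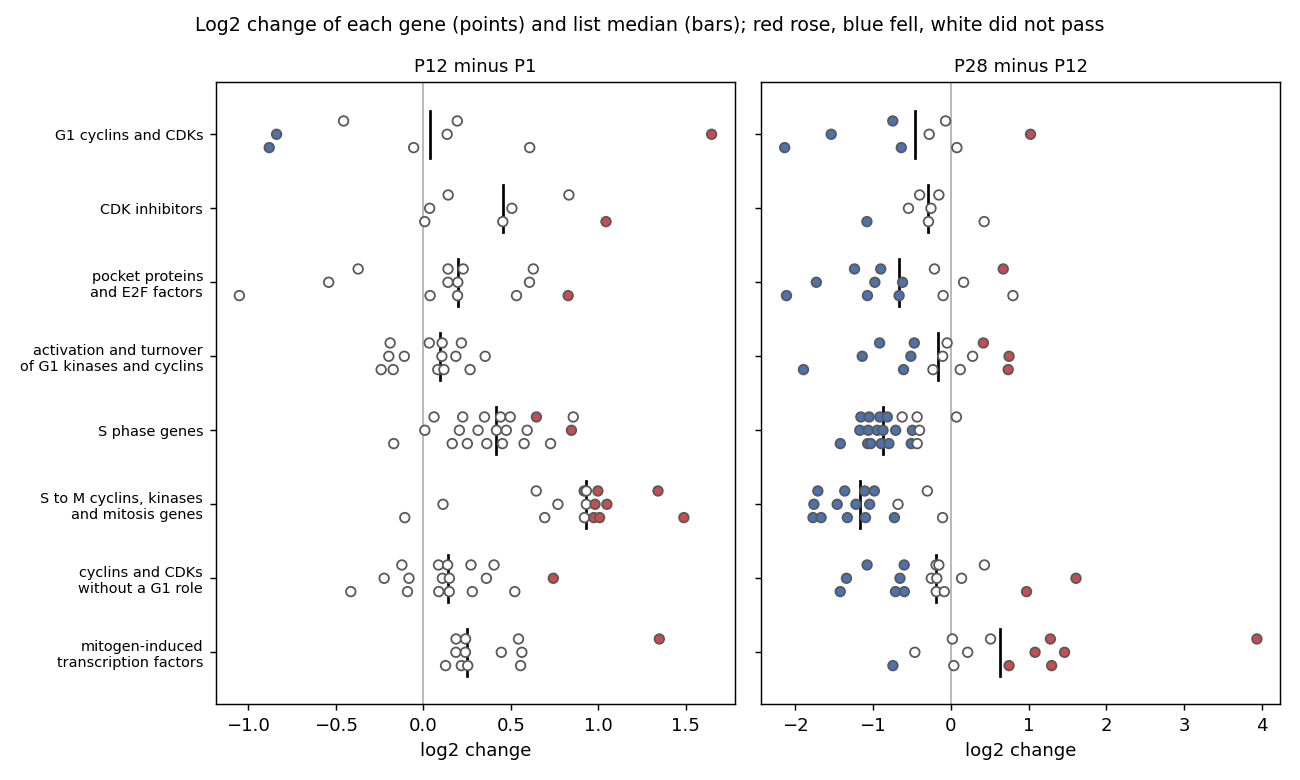
Log2 change of each gene (points, 1 probe set each) in P12 minus P1 and in P28 minus P12, by list (rows), with the list's median as a bar; red points rose, blue points fell and white points did not pass. On the right the S phase and mitosis rows stand mostly below 0 with medians of -0.87 and -1.16, and the row of mitogen-induced factors reaches 3.93.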

How the data were processed

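Gene expression was measured with Affymetrix 3′ expression arrays of the mouse genome on amplified, biotin-labelled cDNA of sorted cells, per the labels' protocols. The authors deposited log2 values per probe set made by RMA, and the submitters' processing notes name RMA, affy and Affymetrix Expression Console and give no versions. Whether all arrays were processed together is not given in the sources used here, and the lowest value was -0.78 to 0.48 on P1 and P12 arrays and 1.65 to 2.09 on P28 arrays. No 2 arrays were identical (0 pairs).

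Of 45101 probe sets, 64 manufacturer controls were left out. Of the 45037 others, 34945 carried 1 gene symbol, 932 several and 9160 none in the supplied annotation, and 34741 Entrez identifiers were found in the RefSeq gene table. Of several probe sets of a gene, the one with the highest mean stood for it. No further normalization or filter was applied. limma 3.58.1 in R 4.3.3 fitted age means over all 11 arrays (lmFit, contrasts, eBayes; 8 residual and 5.82 prior degrees of freedom). Two-sided p-values were adjusted over 45037 probe sets (Benjamini-Hochberg). The fit was tested on simulated data. Arrays give no depth, and their number limits the precision.

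The 8 genes, the pathway lists (154 genes with the marker lists, 6 of them without a probe set of that symbol alone) and the tests were chosen with earlier results of these data known. From each pathway list at most 3 risers and 3 fallers without overlap between ages were named, and all CDK inhibitors. Nearest genes were the 3 with the smallest root mean square difference. P1 and P12 arrays of the same number deviated together from their age means (correlations 0.14, 0.21, 0.31 and 0.18). The main fit and the main exact tests did not use these pairs. Only a fit with the replicate number as a block and the exact paired test did. For P28 and P12 the correlations were 0.03, -0.12 and -0.04, and for P28 and P1 they were 0.09, 0.02 and 0.05. The fit with the replicate number as a block, other scalings, filters and weights, the Gapdh covariate and fits without 1 array were alternatives. Promoters came from a RefSeq table of GRCm38.p6, and those of Ccnd1, Ccnd2 and Ccne2 were not used here.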

Additional observations from a re-analysis of the deposited data

Results flagged for a closer look

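Of 48 groups of 4 arrays, 3 held an array that stood far from the other 3, where chance gives about 1 in 20 groups. For the dim Ccnd3 probe set 1438805_at it was P12 replicate 1, whose 3.93 stood below 4.22 to 4.25 of its group (gap over range 0.903). For Cdk2 (1416873_a_at) it was P1 replicate 2, whose 8.60 stood above 8.17 to 8.23 of its group (0.857). For Cdk6 (1455287_at) it was P1 replicate 1, the P1 array with high Xist. Its 8.32 stood below 8.69 to 8.75 of its group (0.871). Without that array Cdk6 still passed in P28 against P1.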

How the results depend on the processing

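The log2 changes of the 8 brightest probe sets kept their direction and side of the threshold in 217 values under other settings, while 12 calls appeared, 4 ended and 7 signs turned. Without 1 array, 167 values kept both, 2 calls appeared, 1 ended and 6 signs turned. The signs that turned belonged to changes that did not pass. In P12 against P1 Ccnd3 changed by 0.011 with array weights, by 0.12 within replicates 3 and 4 and by -0.15 to 0.045 without 1 array. Cdk2 changed there by -0.058 within replicates 1 and 2, and Ccne2 by -0.088 within replicates 3 and 4 and by -0.11 to 0.31 without 1 array. In P28 against P12 Ccnd3 changed by 0.12 and Cdk4 by 0.067 with the Gapdh covariate. Without 1 array Ccnd3 changed there by -0.17 to 0.041 and Ccnd1 by -0.095 to 0.26. In P28 against P1 Ccnd3 changed by 0.079 with the covariate.

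Of the 24 probe sets, the 3 that rose in P12 against P1 became 5 with median centring, without dim probe sets, with the covariate or with array pairs as a block, and 6 with array weights. They became 1 within replicates 1 and 2 and 6 within replicates 3 and 4. The 6 that fell became 0 and 3 within these pairs. With 1 probe set per gene, and so fewer probe sets, the numbers that fell were 2 in P12 against P1, 4 in P28 against P12 and 3 in P28 against P1, and 1 rose in each of the comparisons with P28. With the covariate 2 rose in P28 against P12 and 5 in P28 against P1. Without 1 array 3 to 6 rose in P12 against P1, 2 to 4 in P28 against P12 and 3 to 5 in P28 against P1. The numbers that fell were 5 to 7, 8 to 9 and 9 to 10 in the same order.

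Of the 100 pathway genes (97 without dim probe sets), 22 rose and 1 fell in P12 against P1 without dim probe sets, 3 fell with quantile normalization and 1 with the covariate. In settings added for these genes after seeing the data, 29 rose and 3 fell there with array pairs as a block, 23 rose and 1 fell with array weights, and 0 rose within replicates 1 and 2. In P28 against P1 11 fell with the covariate. Without 1 array 3 to 18 rose and 0 to 1 fell in P12 against P1, 8 to 12 rose and 45 to 54 fell in P28 against P12, and 14 to 21 rose and 22 to 37 fell in P28 against P1. With the replicate number as a block, 4 of the 24 probe sets rose and 7 fell, and 16 pathway genes rose and 1 fell, in P12 against P1. The block changed no call of a brightest probe set other than that of Cdk4 in that comparison. In the comparisons with P28, which its numbers did not pair, 5 and 3 of the 24 rose with it.

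With 1 array fewer, differences between family members could not pass in the comparisons with P28, whose smallest p is then above the threshold, and the joint adjustment also raised the p of P12 against P1. The exact paired test over replicate numbers, a replicate block added after seeing the data, left the means as they were (2.49, 1.70, -1.02 and 1.06 for the first 4 differences below) and cannot pass with 4 pairs. In P12 against P1 the differences ranged without 1 array over 2.24 to 2.62 (Ccnd1 minus Ccnd2), 1.55 to 1.82 (Ccnd1 minus Ccnd3), -1.15 to -0.86 (Ccne1 minus Ccne2), 0.88 to 1.22 (Cdk4 minus Cdk6) and 0.32 to 0.56 (Cdk4 minus Cdk2). In P28 against P1 the ranges were 1.39 to 1.65, 1.70 to 2.04, -1.83 to -1.31, 1.35 to 1.67 and 0.67 to 0.87 in the same order. In P28 against P12 Ccnd1 minus Ccnd2 ranged over -1.08 to -0.70. The causes were not tested.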
